A study of Mus musculus with 4 samples.

Results

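The genes described here encode the enzymes of the Kennedy pathway, which makes phosphatidylethanolamine and phosphatidylcholine, the most abundant phospholipids of animal cell membranes. The members were named by symbol: the ethanolamine kinases Etnk1 and Etnk2, the choline kinases Chka and Chkb, the cytidylyl transferases Pcyt1a and Pcyt2, and the phosphotransferases Cept1 and Chpt1. Of these 8 genes, 7 had a row among the 34615 gene rows of the count files, and Pcyt2 was not analysed here. Etnk1 was chosen by its counts-per-million (CPM), which were higher in both KO libraries, so its difference between KO and WT is a description without a test. The other members were included for their place in the pathway.

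RNA was sequenced from mouse mammary basal cells, which form the outer layer of the gland's epithelium. In the KO group (genotype label miR205fl/flmTmGfl/fl cre+), mammary cells with floxed miR-205 alleles and the RosamTmG reporter had been treated with Ad-cre, an adenovirus that delivers Cre recombinase. In the WT group (genotype label WTfl/flmTmGfl/fl cre+), reporter cells with wild-type miR-205 had received the same virus, so Cre exposure, reporter and transplantation were shared by both groups. The treated cells were transplanted into SCID-Beige mice, an immunodeficient strain, at 3 weeks of age. After 8 weeks, GFP+ CD24+ CD49f-high cells were sorted from pooled outgrowths (the design text gives the number 40), and each group has 2 libraries. Nothing in the labels states that the 2 libraries of a group came from separate animals or pools, so p-values reflect library-to-library spread only, some or all of it possibly technical. The comparison asked which genes differ in basal cells after loss of miR-205.

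Ethanolamine and choline enter the pathway along parallel branches. A kinase phosphorylates the head group, a cytidylyl transferase couples the product to CTP, usually as the slow step, and a phosphotransferase joins the activated head group to diacylglycerol. Choline kinase alpha is known for raised activity in breast tumours, and phosphatidylcholine is also needed for the membranes and secreted fat droplets of the lactating gland.

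Gene counts per library were 60030932 and 47953972 in KO and 53067076 and 57650462 in WT. KO replicate 2 stood apart, with a count in 12679 genes, against 18897 genes in KO replicate 1 and 18139 and 18027 genes in the WT libraries. Values are therefore given for each library, and fold changes also without KO replicate 2. Mir205 itself had 0 counts in all 4 libraries and gave no check of the labels, so the groups rest on the labels alone. CPM are scaled by the TMM method unless stated otherwise. Of 8 tested basal markers, 5 had a positive and 3 a negative fold change; Krt5 stood at 1773 and 1512 CPM in KO and 1219 and 1219 CPM in WT, and Trp63, which overlapped, at 900.6 and 1309 CPM in KO and 1049 and 903.5 CPM in WT. Of 9 tested luminal markers, 4 were positive and 5 negative. Krt8 overlapped, at 327.0 and 318.0 CPM in KO and 244.7 and 356.2 CPM in WT. Kit was below both WT libraries in both KO libraries, at 6.91 and 1.44 CPM in KO and 15.6 and 27.6 CPM in WT. So was Elf5, at 1.496 and 0 CPM in KO and 3.05 and 4.79 CPM in WT. Only these 2 luminal markers did not overlap, and 19.2% of all tested genes lay below in this way. Among the 8841 tested genes with a mean of 5 CPM or more, 1291 did. Foxa1 and Prlr were positive and overlapped. Foxa1 stood at 9.44 and 89.1 CPM in KO and 13.1 and 6.54 CPM in WT. Prlr stood at 29.2 and 210.1 CPM in KO and 21.8 and 100.6 CPM in WT.

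The sequences shown first bear on the gene that was removed, miR-205, because the transcripts of 2 members carry a match to its seed. A microRNA pairs with target transcripts mainly through bases 2 to 8 of its mature strand, the seed. The mature strand of mmu-miR-205-5p (RefSeq, GRCm38.p6, chr1:193507503-193507524, minus strand) is printed with the seed in capitals. The target windows come from the longest annotated 3' UTRs in GENCODE M21, written as the transcript strand, with the letters that match the seed in capitals and, for Etnk1, the A that follows them.
mmu-miR-205-5p: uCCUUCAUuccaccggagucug
Etnk1 3' UTR, bases 5008 to 5014: ccattgattaaATGAAGGAatgtatcttt
Pcyt1a 3' UTR, bases 1760 to 1766: actaactcctcATGAAGGgctgctttcac

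The Etnk1 match was of the 8mer type (ATGAAGGA), the longest seed match class, and lay 76 bases before the end of a 3' UTR of 5090 bases. Only 1 of the 3 annotated Etnk1 coding transcripts with a 3' UTR holds it, ENSMUST00000032413.6. The Pcyt1a match was of the 7mer-m8 type (ATGAAGG, which is contained in the 8mer) and lay in the middle of a 3' UTR of 3567 bases, in 2 of the 4 annotated coding transcripts with a 3' UTR. No 7mer-m8 match was found in the longest annotated 3' UTRs of Etnk2, Chka, Chkb, Cept1 and Chpt1. The shorter 6mer (TGAAGG), which every longer match contains, occurred 3 times in Etnk1, 3 times in Chka and once each in Etnk2 and Pcyt1a. Cept1 held 1 match to the seed of the other arm, mmu-miR-205-3p (CTGAAAT). The search covered the transcript strand only.

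Such matches were common among tested genes and more so in long 3' UTRs. Of 12621 tested coding genes for which a 3' UTR is annotated, 12.1% held a 7mer-m8 match and 4.27% an 8mer. Among the 758 genes whose 3' UTR was 0.8 to 1.25 times as long as that of Etnk1, 33.4% held a 7mer-m8 match and 12.0% an 8mer. Among the 1460 genes with a 3' UTR of such a length relative to Pcyt1a, 25.1% held a 7mer-m8 match. A match is a string of letters in the annotation. The counts do not show which 3' UTR these cells used or whether the site was bound.

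Etnk1 (ENSMUSG00000030275) makes the kinase that starts the ethanolamine branch. It stood at 311.2 and 486.0 CPM in the KO libraries, against 187.1 and 177.7 CPM in the WT libraries. Both KO libraries were above both WT libraries, and the 2 WT libraries lay close together while the KO libraries did not. The means were 398.6 ± 123.6 CPM in KO and 182.4 ± 6.66 CPM in WT (SD, n = 2 each), a fitted log2 fold change of 1.13 ± 0.28 (SE), or 2.19 times. Without KO replicate 2, the log2 fold change was 0.77, and without KO replicate 1 it was 1.41. Both KO libraries lay above both WT libraries in 13.2% of the 15364 tested genes, and the libraries did not overlap in either direction in 32.4%. Above was more common than below among the 8841 tested genes with a mean of 5 CPM or more (1639 against 1291 genes). Over all tested genes it was less common (2035 against 2947). In bulk RNA, more cells with a transcript and more of it per cell cannot be told apart.

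Some summed marker levels, like Etnk1, were higher in both KO libraries than in both WT libraries. Summed fibroblast markers (7 of 8 listed genes had a row) stood at 605.5 and 785.9 CPM in KO and at 527.0 and 588.1 CPM in WT, with Dpt at 0 in KO replicate 2. Of the 7, 1 (Dcn) was above and 1 (Dpt) below both WT libraries in both KO libraries, and the others overlapped. Dcn stood at 153.2 and 221.3 CPM in KO and 89.5 and 105.6 CPM in WT. Fbn1, the largest part of each sum, stood at 399.1 and 487.0 CPM in KO and 383.8 and 406.8 CPM in WT. Summed adipocyte markers (6 of 6 with a row) stood at 34.7 and 138.8 CPM in KO and 17.5 and 30.1 CPM in WT. Fabp4 alone gave 32.2 and 138.8 CPM in KO and 14.8 and 28.3 CPM in WT. Adipoq and Plin1, the defining markers, were at 0 in both KO libraries, and in WT Adipoq was at 0 in replicate 1 and Plin1 in replicate 2. Summed basal markers (8 of 10 with a row) stood at 11791 and 9813 CPM in KO and 9588 and 9254 CPM in WT, an order that was lost under total count scaling. Their sum was higher in KO replicate 1 than in KO replicate 2, the reverse of Etnk1. Summed immune, luminal and endothelial markers overlapped between KO and WT. The immune sum was 97.4 and 318.8 CPM in KO and 66.0 and 149.4 CPM in WT. Its largest part, Cd74, stood at 71.9 and 289.2 CPM in KO and 56.1 and 136.4 CPM in WT. The luminal sum was 1045 and 1555 CPM in KO and 926.3 and 1410 CPM in WT. For endothelial markers it was 149.0 and 78.1 CPM in KO and 99.6 and 179.1 CPM in WT. KO replicate 2 was thus highest for immune and luminal markers and lowest for endothelial ones. By gene, both KO libraries were below both WT libraries in 2 of 9 tested luminal markers (Kit and Elf5) and 1 of 6 immune markers (Csf1r). The same held for 0 of 5 endothelial markers, and 0 markers of these 3 lists were above. Over all tested genes the shares were 19.2% below and 13.2% above, so these small counts are not read as a change. The part of other cell types in the Etnk1 difference was not tested.

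**Figure D1:**
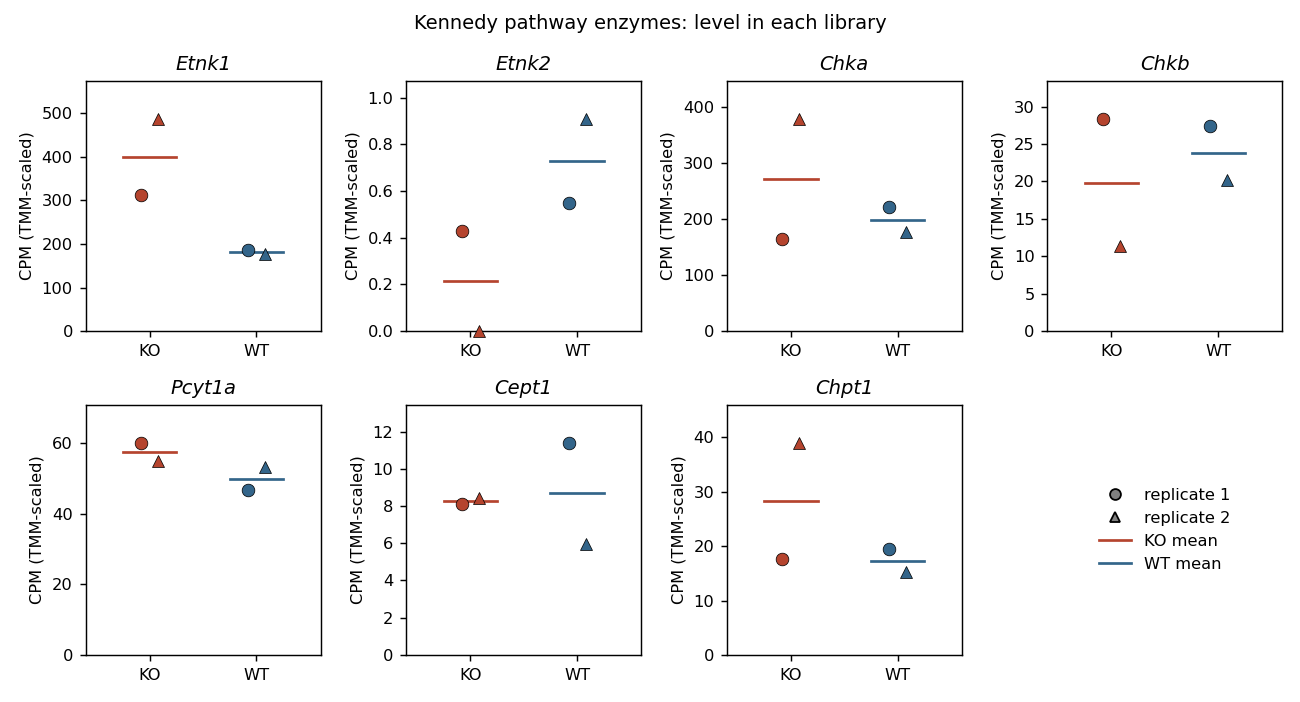
Level of each Kennedy pathway enzyme in the 4 libraries, in TMM-scaled CPM on an axis from 0 that differs between panels, with KO left of WT, circles for replicate 1, triangles for replicate 2 and a line at each group mean. Etnk1 is at 311.2 and 486.0 CPM in KO and at 187.1 and 177.7 CPM in WT, while Chka, Chkb, Cept1 and Chpt1 overlap between the groups.

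Etnk2 (ENSMUSG00000070644), the other ethanolamine kinase and in mouse best known from liver and reproductive tissue, was barely detected. It had 27 and 0 counts in the KO libraries, against 31 and 54 counts in the WT libraries. A count of 0 in KO replicate 2 allows up to 3 counts, or 0.0626 CPM before TMM scaling, for counting error only. All 4 libraries were under 1 CPM, with means of 0.21 ± 0.30 CPM in KO and 0.73 ± 0.25 CPM in WT (SD, n = 2 each). Both KO libraries were below both WT libraries, as in 19.2% of tested genes. The fitted log2 fold change of -1.74 ± 2.40 had an edgeR adjusted p of 0.9989, and its size rests on the library at 0, since it was -0.76 without KO replicate 2.

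Chka (ENSMUSG00000024843) and Chkb (ENSMUSG00000022617) make the choline kinases, which start the choline branch and also accept ethanolamine. Chka stood at 165.1 and 377.6 CPM in KO and at 220.4 and 176.7 CPM in WT. KO replicate 1 was below both WT libraries and KO replicate 2 above both, so the KO libraries straddled WT. The log2 fold change was 0.45 ± 0.43 (SE; edgeR adjusted p of 0.9989), and it turned to -0.26 without KO replicate 2. Without KO replicate 1 it was 0.92, with an edgeR adjusted p of 0.01053, in a fit whose only KO library was KO replicate 2 and which called 34.9% of all genes.

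Chkb had the opposite pattern, at 28.3 and 11.4 CPM in KO and at 27.4 and 20.2 CPM in WT. Here KO replicate 2 was the lowest library and KO replicate 1 the highest. Its log2 fold change of -0.26 ± 0.64 (SE; edgeR adjusted p of 0.9989) turned to 0.25 without KO replicate 2. The ratio of Chka to Chkb reads within a library, which does not depend on scaling, was 5.83 and 33.2 in KO and 8.05 and 8.73 in WT. KO replicate 2 thus stood apart from all other libraries in its choline kinase reads, while KO replicate 1 lay below WT. Chkb shares 1552 exonic bases on the same strand with a read-through gene, Gm44502, that had no row in the files, so its count may hold reads of that transcript.

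Set beside the other kinases, Etnk1 took a larger share of kinase reads in both KO libraries. Per kilobase of annotated exons, it made up 48.8% and 49.4% of the summed CPM of the 4 kinases in KO and 32.6% and 36.9% in WT. By this length the share was nearly equal in the 2 KO libraries, although the Etnk1 level differed between them. With the longest coding transcript as the length, a choice added after seeing the data, the shares were 37.2% and 32.8% in KO and 22.1% and 25.3% in WT. The near equality in KO thus depended on the length used. The share uses the values by which Etnk1 was picked, and is a description. The same holds for the ratio of Etnk1 to Chka reads, which was 1.89 and 1.29 in KO and 0.85 and 1.01 in WT.

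**Figure D2:**
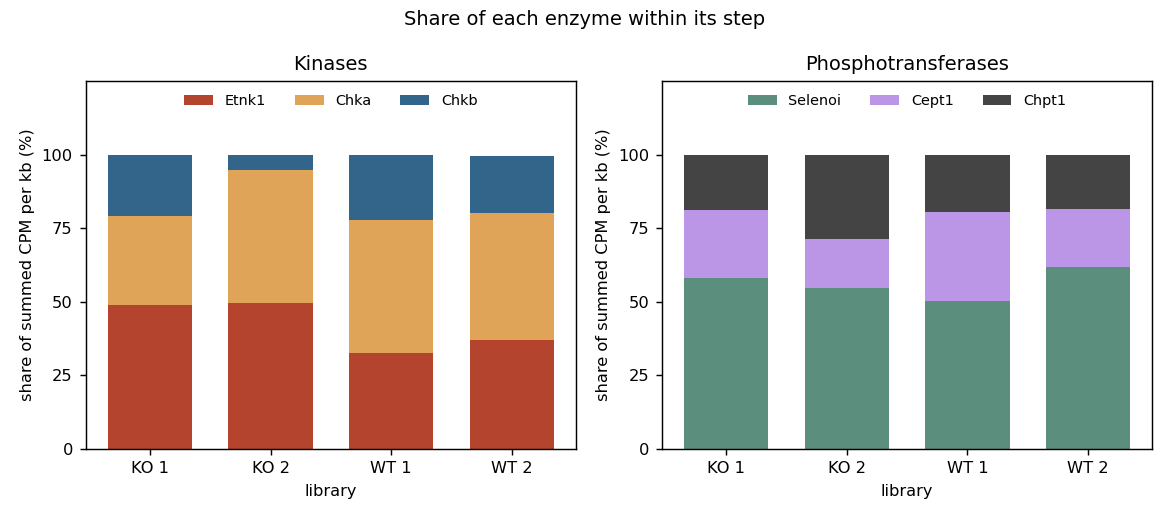
Stacked shares, in percent, of the summed CPM per kilobase of annotated exons in each library, KO left of WT, for the kinases (left; Etnk2 makes up the remainder, too small to see) and for the phosphotransferases with Selenoi (right). Etnk1 takes 48.8% and 49.4% of the kinase sum in KO and 32.6% and 36.9% in WT, and Chkb takes 5.35% in KO replicate 2 and 20.5% in KO replicate 1.

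Pcyt1a (ENSMUSG00000005615) makes CTP:phosphocholine cytidylyl transferase alpha, the enzyme that usually sets the rate of phosphatidylcholine synthesis. It stood at 60.0 and 54.8 CPM in KO and at 46.6 and 53.2 CPM in WT. The KO libraries were just above the WT libraries, but KO replicate 2 fell between them under total count scaling (47.7 CPM, against 49.5 and 54.8 CPM in WT). The means were 57.4 ± 3.68 CPM in KO and 49.9 ± 4.63 CPM in WT (SD, n = 2 each), a gap of less than the sum of those SDs. The log2 fold change was 0.20 ± 0.32 (SE; edgeR adjusted p of 0.9989) and 0.27 without KO replicate 2. Pcyt1a is the other member with a 7mer-m8 match to miR-205-5p. Its paralog Pcyt1b had 19.6 and 0.048 CPM in KO and 11.4 and 15.2 CPM in WT, with only 2 reads in KO replicate 2.

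The last step is carried out by Chpt1, which makes phosphatidylcholine, and Cept1, which makes both phospholipids. Chpt1 (ENSMUSG00000060002) stood at 17.7 and 39.0 CPM in KO and at 19.4 and 15.3 CPM in WT. KO replicate 1 lay between the WT libraries, and KO replicate 2 was the high one. The log2 fold change of 0.71 ± 0.60 (SE; edgeR adjusted p of 0.9989) was 0.03 without KO replicate 2. Without KO replicate 1 it was 1.16 with an edgeR adjusted p of 0.04425, again in the fit that called 34.9% of all genes.

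Cept1 (ENSMUSG00000040774) was the lowest member after Etnk2, with 8.08 and 8.44 CPM in KO and 11.4 and 5.97 CPM in WT. Both KO libraries lay between the WT libraries. The log2 fold change was -0.07 ± 0.83 (SE; edgeR adjusted p of 0.9989), and its sign changed with the setting. The annotated exons of Cept1 share 771 bases with Dennd2d on the other strand, and those of Chpt1 share 660 bases with Sycp3 on the other strand. Whether the counting used strand is not given in the sources used here, and without it reads from these stretches cannot be assigned to 1 gene. Dennd2d had 336 and 0 counts in KO and 387 and 396 counts in WT, and Sycp3 had at most 31.

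Selenoi, the selenoprotein that makes phosphatidylethanolamine from the product of the ethanolamine branch, is not a member but closes the branch that Etnk1 opens. It stood at 85.4 and 117.2 CPM in KO and at 79.3 and 79.9 CPM in WT. Both KO libraries were higher, with a log2 fold change of 0.35 ± 0.29 (SE; edgeR adjusted p of 0.9989) and 0.10 without KO replicate 2. The ratio of Etnk1 to Selenoi reads was 3.64 and 4.15 in KO and 2.36 and 2.22 in WT. This ratio uses the values by which Etnk1 was picked, and is a description. Per kilobase of exons, Selenoi made up 58.0% and 54.7% of the 3 phosphotransferases in KO and 50.2% and 61.9% in WT, so its share overlapped between the groups.

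Compared per kilobase of annotated exons, the order of the mean levels in KO was Etnk1 (28.2 CPM per kilobase), Chka (22.6), Pcyt1a (7.74), Chkb (6.48), Chpt1 (3.40), Cept1 (2.65) and Etnk2 (0.047). In WT the order was Chka (16.5 CPM per kilobase), Etnk1 (12.9), Chkb (7.78), Pcyt1a (6.73), Cept1 (2.79), Chpt1 (2.08) and Etnk2 (0.16). In KO the per-library values of Etnk1 and Chka overlapped, as did those of Pcyt1a and Chkb, Chkb and Chpt1, and Chpt1 and Cept1. The step between Chka and Pcyt1a and that down to Etnk2 did not overlap. In WT, Chka was above Etnk1 in both libraries, Chkb and Pcyt1a overlapped, and Cept1 and Chpt1 overlapped. With the longest coding transcript as the length, Chka was above Etnk1 also in KO, with mean levels of 106.5 and 62.0 CPM per kilobase. By mean CPM, Etnk1 was ranked 739 and Chka 940 among the 15364 tested genes.

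Over all tested genes, the edgeR quasi-likelihood test called 0 of 15364 genes at an adjusted p under 0.05 (0%), and limma voom called 0. DESeq2 called 4 genes (0.026%), and 147 genes (0.957%) had an unadjusted p under 0.05 in edgeR. Leaving out WT replicate 1 gave calls in 0.0305% of genes, and leaving out WT replicate 2 in 0.0306%, with 0 members among them. Of the 6 members with a test, 0 were called by edgeR, DESeq2 or voom, and 0 had an unadjusted p under 0.05 in edgeR. Their fold changes had both signs, 3 positive and 3 negative, and Etnk1 was positive. The median log2 fold change of all tested genes was -0.14, and of those with a mean of 5 CPM or more 0.05. A miss at this spread does not show that the members were alike in KO and WT, and the SE of the Cept1 fold change was 0.83 on the log2 scale.

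**Figure D3:**
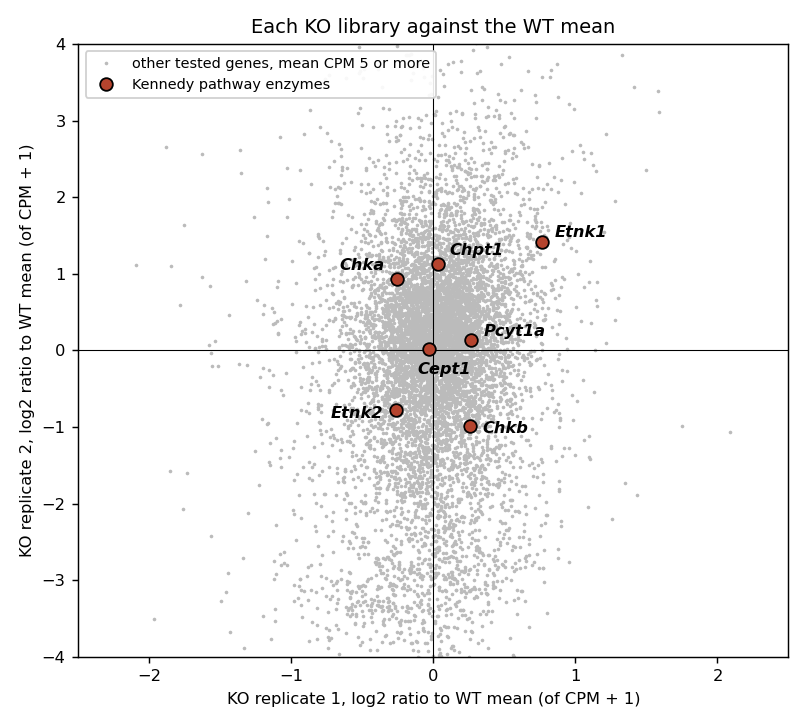
Log2 ratio of each KO library to the WT mean, computed on CPM + 1, with KO replicate 1 on the x axis and KO replicate 2 on the y axis, for the 7 enzymes and for 8841 tested genes with a mean of 5 CPM or more (102 of these lie outside the axes). Etnk1 lies at 0.77 and 1.41, and Chka, at -0.26 and 0.93, and Chkb, at 0.26 and -0.99, lie in opposite quadrants.

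Across the 2 KO libraries, the members thus fell into different patterns. Etnk1 was well above WT in each, at log2 ratios to the WT mean of 0.77 in KO replicate 1 and 1.41 in KO replicate 2. It had been picked for higher values in both. Pcyt1a was slightly above WT in each, at 0.26 and 0.14, and Cept1 was near 0 in each, at -0.03 and 0.02. Chpt1 differed from WT in KO replicate 2 alone, at 0.03 and 1.13. Chka and Chkb changed sign between the KO libraries.

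**Figure D4:**
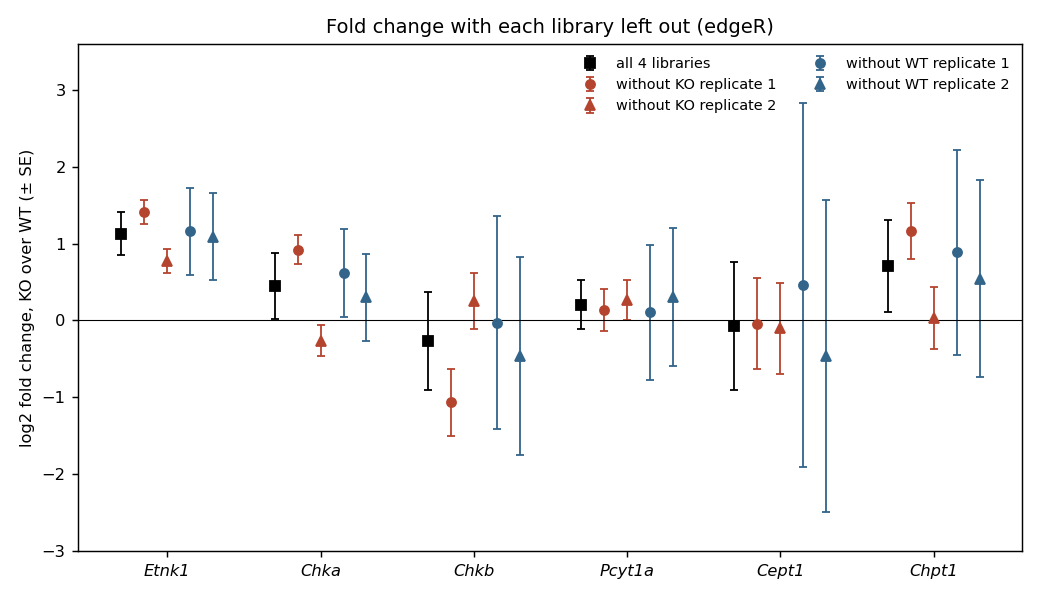
Fitted log2 fold change of KO over WT (edgeR, bars are ± 1 SE) for each enzyme except Etnk2, whose fit rests on a library at 0 counts, with all 4 libraries and with each left out. Etnk1, picked for higher values in both KO libraries, ranges from 0.77 to 1.41, and its sign follows from that choice. Chka and Chkb cross 0 when KO replicate 2 is left out.

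Genes whose pattern over the 4 libraries was most like that of Etnk1 were sought among 3499 named genes with a mean of 50 CPM or more. Genes without a symbol or with a provisional one (such as Gm or Rik) were left out. So were pseudogenes and gene types other than coding genes and certain noncoding RNAs. Likeness was the root mean square difference in log2(CPM + 1) relative to the WT mean. The nearest was Col6a1, a collagen VI chain, at a difference of 0.06, with 75.6 and 131.9 CPM in KO and 47.2 and 46.4 CPM in WT. Then came Fam102b at 0.10, Plat, the tissue plasminogen activator, at 0.10, Ube2j1, a ubiquitin-conjugating enzyme of the endoplasmic reticulum, at 0.12, and Ptprj, a receptor tyrosine phosphatase, at 0.14. None of the 5 is an enzyme of phospholipid synthesis. With 4 libraries, likeness says only that these values lie close.

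Related phospholipid genes were taken from 8 lists with 75 entries, of which 70 had a row and 65 were tested. Their median log2 ratio to the WT mean was 0.06 in KO replicate 1 and -0.44 in KO replicate 2, while over all tested genes it was 0.00 and -0.30. Over tested genes with a mean of 5 CPM or more, a level that 55 of the 65 reached, it was 0.02 and 0.07. edgeR called 0 of the 65, as did DESeq2 and voom. Both KO libraries were above both WT libraries in 11 genes and below them in 14, set against 13.2% and 19.2% of all tested genes. Of the 8841 tested genes with a mean of 5 CPM or more, 1639 were above and 1291 below. The median log2 fold change was -0.24 with all libraries and 0.05 without KO replicate 2.

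The sphingomyelin cycle had the highest list median, 0.44 over 5 tested genes, and 0.19 without KO replicate 2. Sphingomyelin synthases move the phosphocholine head group from phosphatidylcholine to ceramide. Sgms2, the synthase of the plasma membrane, was the only related gene with an unadjusted p under 0.05 (0.036, edgeR adjusted p of 0.9989), and it was singled out after its values were seen. It stood at 709.0 and 1051 CPM in KO and at 399.2 and 575.4 CPM in WT, a log2 fold change of 0.85 ± 0.30 (SE), and 0.54 without KO replicate 2. Both KO libraries were above both WT libraries. Samd8, a related ceramide phosphoethanolamine synthase, had 66.0 and 338.1 CPM in KO and 61.2 and 63.1 CPM in WT, so its log2 fold change of 1.70 ± 0.76 came from KO replicate 2 and was 0.09 without it. Smpd1, the lysosomal sphingomyelinase, had 6.67 and 0.024 CPM in KO and 8.04 and 7.31 CPM in WT.

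Among other routes to these phospholipids, 5 of 10 tested genes were positive and 5 negative, with a median log2 fold change of -0.15. Serinc5, of the serine incorporator family, had 99.2 and 198.5 CPM in KO and 97.3 and 88.9 CPM in WT. Ptdss2, which makes phosphatidylserine from phosphatidylethanolamine, had 4.69 and 0.50 CPM in KO and 7.19 and 7.95 CPM in WT. For Serinc5 KO replicate 1 lay at the WT level, while for Ptdss2 both KO libraries were lower and KO replicate 2 by far the lowest. Without KO replicate 2 the log2 fold changes were 0.09 for Serinc5 and -0.69 for Ptdss2. Of the choline carriers, Slc44a2 was the gene with a mean of 5 CPM or more whose groups did not overlap, at 45.0 and 33.8 CPM in KO and 54.6 and 46.9 CPM in WT, and the list median over 6 tested genes was 0.00.

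Genes that supply diacylglycerol and CTP had 5 positive and 11 negative fold changes and a median of -0.09. Agpat2, an acyltransferase of lipid synthesis, had 6.65 and 0.89 CPM in KO and 7.54 and 8.82 CPM in WT. Lpin1, a phosphatase that makes diacylglycerol, had 5.97 and 1.49 CPM in KO and 9.46 and 6.27 CPM in WT. For both, KO replicate 1 lay just below the WT libraries and KO replicate 2 far below.

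The lowest list medians were those of ether lipid synthesis, breakdown of these phospholipids, and the heads made from CDP-diacylglycerol, at -0.94, -0.69 and -0.54. Without KO replicate 2 they were -0.04, -0.32 and -0.22. Gnpat, the first enzyme of ether lipid synthesis, had 20.7 and 0.46 CPM in KO and 22.8 and 23.3 CPM in WT. Pnpla6, a phospholipase that deacylates phosphatidylcholine, had 5.63 and 0.024 CPM in KO and 10.7 and 6.30 CPM in WT, and Cds1, which makes CDP-diacylglycerol, had 21.1 and 14.4 CPM in KO and 26.8 and 24.1 CPM in WT. Mboat1, an acyltransferase of chain remodelling, and Chdh, which oxidises choline, were slightly higher in KO (log2 fold changes of 0.21 ± 0.63 and 0.21 ± 0.34), and overlapped with WT under total count scaling.

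Among the related genes with an annotated 3' UTR, 16 of 69 held a 7mer-m8 match to miR-205-5p. Of the 64 that were also tested and protein-coding, 13 did (20.3%), with 7 8mers (10.9%), against 12.1% and 4.27% of all such tested genes. Their 3' UTRs had a median length of 1468.5 bases, against 1200 over all such genes. Another 2073 tested coding genes had a 3' UTR 0.8 to 1.25 times that of Cept1, with a median of 1370 bases. In that group 10.5% held a 7mer-m8 match and 3.09% an 8mer. The part of length in the higher share was not tested. The fold changes of the 13 related genes with a match ran in both directions. Gpam, an acyltransferase with an 8mer, had a log2 fold change of 0.52 ± 0.63, with groups that overlapped under total count scaling. Lpin1, also with an 8mer, had -1.08 ± 1.13. Selenoi, with a 7mer-m8 match, was at 0.35 ± 0.29. Without KO replicate 2 the log2 fold changes were 0.55 for Gpam, -0.40 for Lpin1 and 0.10 for Selenoi. These 13 genes were described after their values were seen.

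**Figure D5:**
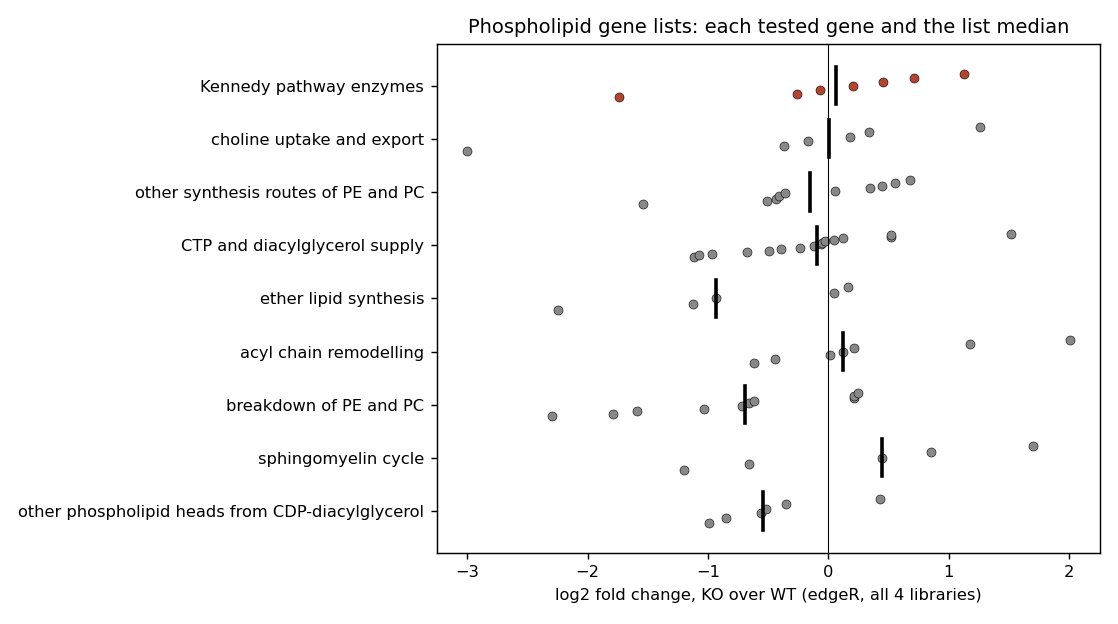
Fitted log2 fold change of KO over WT (edgeR, all 4 libraries) of each tested gene in the Kennedy pathway and in 8 lists of related genes, with the list median as a bar, which for the pathway leaves out Etnk1, picked for its higher KO values. The median of the 6 other members is 0.07, the sphingomyelin cycle is highest at 0.44 and ether lipid synthesis lowest at -0.94.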

How the data were processed

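Per the labels' protocols, RNA was extracted with a PicoPure kit and libraries were made with NuGEN and Illumina protocols. The files, as deposited, hold unnormalized counts of reads for each Ensembl gene, with a file for each library, and per the submitters' processing notes TopHat2 (2.02), HTSeq and the build NCBIM37 (mm9) were used. The 5 summary rows stayed out of library sizes: reads outside features were 57.9% and 61.5% of all reads in KO and 61.4% and 57.6% in WT, and ambiguous reads under 1% in each. Symbols, exon lengths and 3' UTRs came from GENCODE M21 (GRCm38), a later build, matched on gene identifiers (30082 rows), so no gene coordinates are given.

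The test was that of edgeR 4.0.16, run in R 4.3.3 (filterByExpr defaults, TMM, quasi-likelihood test of KO against WT, no replicate block, Benjamini-Hochberg over 15364 genes), after checks on simulated counts. SEs are the fold change divided by the root of the F statistic. Alternatives were DESeq2 1.42.0, limma 3.58.1 voom, other scalings and filters, a replicate block and each library left out. Members and lists were chosen with earlier results of these data known. All members were named, and in each related list up to 2 genes with the largest fold change among those at a mean of 5 CPM or more with groups that did not overlap. Lengths per kilobase were those of all annotated exons, with the longest coding transcript as an alternative chosen after seeing the data. Floors cover counting error only.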

Additional observations from a re-analysis of the deposited data

How the results depend on the processing

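Over all genes, DESeq2 called 4. With 1 library left out, counts ran from 0 to 5724 genes, from 0 to 2 of the 6 tested members and from 0 to 34 of the 65 related genes; the highest values came without KO replicate 1, when KO replicate 2 was the only KO library, and there the members called were Chka and Chpt1. Each WT library left out gave 5 genes, and KO replicate 2 left out gave 0. In those fits the lone library is assumed to vary like the other group. All other scalings, filters and tests called 0 genes, members and related genes. The Etnk1 log2 fold change was positive in all 11 alternatives, from 0.77 without KO replicate 2 to 1.41 without KO replicate 1. Etnk1 was picked for higher values in both KO libraries, so its sign follows from that choice and is no check. Signs reversed for Chka (-0.26) and Chkb (0.25) without KO replicate 2, and for Cept1 with voom (0.0074), with the replicate block (0.0018) and without WT replicate 1 (0.47); the cause was not tested. With 1 library left out, log2 fold changes ran from -0.26 to 0.92 for Chka, from -1.07 to 0.25 for Chkb and from -0.46 to 0.47 for Cept1. Same-numbered libraries had deviations correlated at 0.01 over 15364 genes, and at 0.04 over the 8841 genes with a mean of 5 CPM or more. With 2 libraries per group and KO replicate 2 apart from the rest, this cannot decide whether the replicate numbers mark pairs. With the block, 79 genes had an unadjusted edgeR p under 0.05. It called 0 genes, as did the main fit, so there was no call to change. The median log2 fold change of all genes was -0.14, and -0.24 under total count scaling. Levels under 1 CPM, such as that of Etnk2, rest on at most 54 reads.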
